A study of Xenopus tropicalis with 192 samples.

Results

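Late life in the western clawed frog Xenopus tropicalis was examined by comparing the webbing skin of the oldest frogs of the series with that of the next oldest. The oldest group was 22 frogs of 3987 days (10.92 years), all of the strain Xtr.Tg(eef1a1:GFP)Krieg and kept in 4 tanks. The other, here called the younger group, was 24 frogs of 3090 to 3583 days (8.46 to 9.81 years), of 5 strains in 6 tanks. Both groups were chosen by age alone, and together they are 46 of the 192 frogs of the series. All 46 were adults on sequencing lane 1. All carried the Nigerian background NXR_1018, were kept at a water temperature and light cycle common to the whole colony, and had no recorded sex. The first group's tanks were A133 (8 frogs), A135 (4 frogs), A137 (4 frogs) and A139 (6 frogs). The second group's tanks were A308 (3090 days, 5 frogs, Xtr.Et(CAGGS-SB10;cryga:RFP)7M8FMead), A312 (3100 days, 4 frogs, Xtr.Et(eef1a1:GFP)hbrMead), A316 (3188 days, 6 frogs, Xtr.Et(eef1a1:GFP)johMead) and A337 (3301 days, 5 frogs, a strain whose name ends in 8FMead and lists CAGGS-SB10, cryga:RFP and then CAGGS:GFP), with A212 (3 frogs) and A214 (1 frog) of Xtr.Tg(cryga:GFP)Grngr at 3583 days. The names show that these are transgenic lines with fluorescent reporters, and the labels do not say which frogs carried the reporter. As tank mates were alike in age and strain, the tank was the unit of every test, and values over frogs are given beside it. Age and strain cannot be told apart between the groups, since every frog of 3987 days was of the same strain. The 4 oldest tanks, and A212 with A214, also shared strain and age, so a test over tanks does not measure the spread between strains. With 1 strain against 5, no permutation test over strains could give a p under 0.05. Webbing holds several cell types, so that a shift in their shares and a shift in methylation within a type cannot be told apart.

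DNA methylation is the addition of a methyl group to cytosine, in vertebrates mostly where the cytosine is followed by a guanine (a CpG). Most CpGs of a vertebrate genome are heavily methylated, and DNMT1 copies the pattern to the new strand when a cell divides. In many tissues part of the methylated CpGs lose methylation with age while other CpGs gain it, and an epigenetic clock turns such changes into an estimate of age. Bisulfite treatment turns unmethylated cytosine into uracil, which is read as T, so a genomic T in place of the C of a CpG is counted as an unmethylated C. Targeted bisulfite sequencing (TBS) measured 6717 CpGs here, in regions that had tracked age in other frogs, as the fraction of reads that were methylated. Every CpG had at least 100 reads in every frog. The mean coverage of a frog was 375 to 961 (median 687) at 3987 days and 329 to 728 (median 550) in the younger group, so depth differed between the groups. A mixture filter rebuilt here after the study's methods, and not necessarily giving the same set of CpGs, separated 543 CpGs, whose values fell into separate levels that reached nearly 0 in at least 1 frog of the series, from the other 6174. It used all 192 frogs, the 46 compared here included, so that values near 0 in these frogs helped to decide which CpGs it removed. The study set such CpGs aside because it holds their pattern to be likely due to germline changes of C to T in some strains. Whether a low value here is a genomic T or an unmethylated C was not tested.

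The sequences around 6 of the CpGs with the largest differences are shown to give the sites that the largest values below belong to. They come from the capture probes, whose strand is kept, the CpG is in capitals, and the windows are placed so that its C stands at the deposited position in build v10.0, which may be offset by 1 base.
Chr1:33150609 (chr1:33150579-33150640): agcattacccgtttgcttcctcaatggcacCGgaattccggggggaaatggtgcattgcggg
Chr1:33159497 (chr1:33159467-33159528): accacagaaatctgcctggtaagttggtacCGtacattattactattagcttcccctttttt
Chr1:33165035 (chr1:33165005-33165066): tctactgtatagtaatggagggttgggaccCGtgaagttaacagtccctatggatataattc
Chr1:45537824 (chr1:45537794-45537855): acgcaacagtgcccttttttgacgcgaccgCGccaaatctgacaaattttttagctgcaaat
Chr1:33192028 (chr1:33191998-33192059): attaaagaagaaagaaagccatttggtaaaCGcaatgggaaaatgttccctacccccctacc
Chr10:9716 (chr10:9686-9747): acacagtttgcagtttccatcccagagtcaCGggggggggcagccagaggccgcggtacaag
The first 4 were lower at 3987 days and the other two higher. Chr1:45537824 was removed by the filter and the other 5 were left.

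A frog of tank A135 stood apart from the other 21 of 3987 days. It was singled out after the values had been seen, as the frog of its group with the fewest of all CpGs below 0.1. A low count of such CpGs is therefore built into the choice. Of the 543 CpGs removed by the filter it had 167 below 0.1, against 229 to 320 in the 21 others. At Chr1:33150609, Chr1:33159497 and Chr1:45537824 it had 0.659, 0.654 and 0.570, where the others had at most 0.0180, and it had 0 at Chr5:140936009, where the others had at least 0.798. It also lay outside its group mates at other named CpGs, with 0.514 at Chr7:117206520 (at most 0.247 in the others), 0.878 at Chr1:32954830 (at most 0.527) and 0.0590 at Chr10:9716 (at least 0.470). It had 0, as did others of its group, at Chr1:56896693 in lrba and at Chr1:33172689. It was kept in all values below. Without it, limma (a linear model per CpG that shares information on the spread, with calls at an adjusted p under 0.05) called 427 CpGs lower and 277 higher, against 396 (5.9% of all) and 232 (3.45%) with it, and all 24 named CpGs kept their call.

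Mean methylation did not differ detectably between the groups. Over all 6717 CpGs the tanks at 3987 days averaged 0.785 (A133), 0.788 (A135), 0.787 (A137) and 0.793 (A139). The tanks in the younger group averaged 0.772 (A308), 0.797 (A312), 0.803 (A316), 0.803 (A337), 0.809 (A212) and 0.821 (A214). The oldest tanks therefore lay inside the range of the other tanks, at 0.788 ± 0.00348 (SD, n = 4 tanks) against 0.801 ± 0.0162 (SD, n = 6 tanks), and the exact two-sided permutation test over tanks gave p = 0.181 (0.362 after Benjamini-Hochberg adjustment over the 4 measures tested). The lack of a detectable difference depended on tank A308, without which the difference of -0.0126 became -0.0183 with an exact permutation p = 0.0159. Over the 6174 CpGs left by the filter the sign turned, and the difference was 0.00375 with an exact permutation p = 0.695.

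The entropy of methylation, which is highest for a CpG at a fraction midway between none and full, also showed no detectable difference. It was 0.516 ± 0.0175 bits per CpG (SD, n = 4 tanks) at 3987 days and 0.543 ± 0.0331 bits (SD, n = 6 tanks) in the younger group (exact permutation p = 0.181, adjusted 0.362). Frogs of a tank differed from each other by a median SD over CpGs of 0.0194 ± 0.00337 at 3987 days (4 tanks) and 0.0205 ± 0.00222 in the younger group (the 5 tanks with more than 1 frog), with an exact permutation p = 0.556. Skin of the oldest frogs was thus not measurably more or less uniform between tank mates than skin of the younger group.

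An elastic net clock was trained on the 146 frogs of neither group, the oldest of them 7.88 years, and used 302 CpGs. It placed the tanks at 3987 days at 6.38 years (A133), 6.14 years (A135), 7.04 years (A137) and 6.60 years (A139). It placed the other tanks at 7.00 years (A308), 6.11 years (A312), 6.40 years (A316), 7.19 years (A337), 5.55 years (A212) and 5.22 years (A214). The tanks overlapped, and the predicted ages of 6.54 ± 0.382 years (SD, n = 4 tanks) and 6.24 ± 0.780 years (SD, n = 6 tanks) differed by 0.298 years (exact permutation p = 0.471, adjusted 0.556). The clock predicted ages of 5.17 to 7.53 years for single frogs of 3987 days and of 4.61 to 8.67 years for single frogs of the younger group. The true ages of both groups lie beyond those of the training frogs, so that the clock was extrapolating. The training frogs included 5 frogs of the oldest group's strain, at 6.91 years, and the effect of this on the predictions was not tested.

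**Figure D1:**
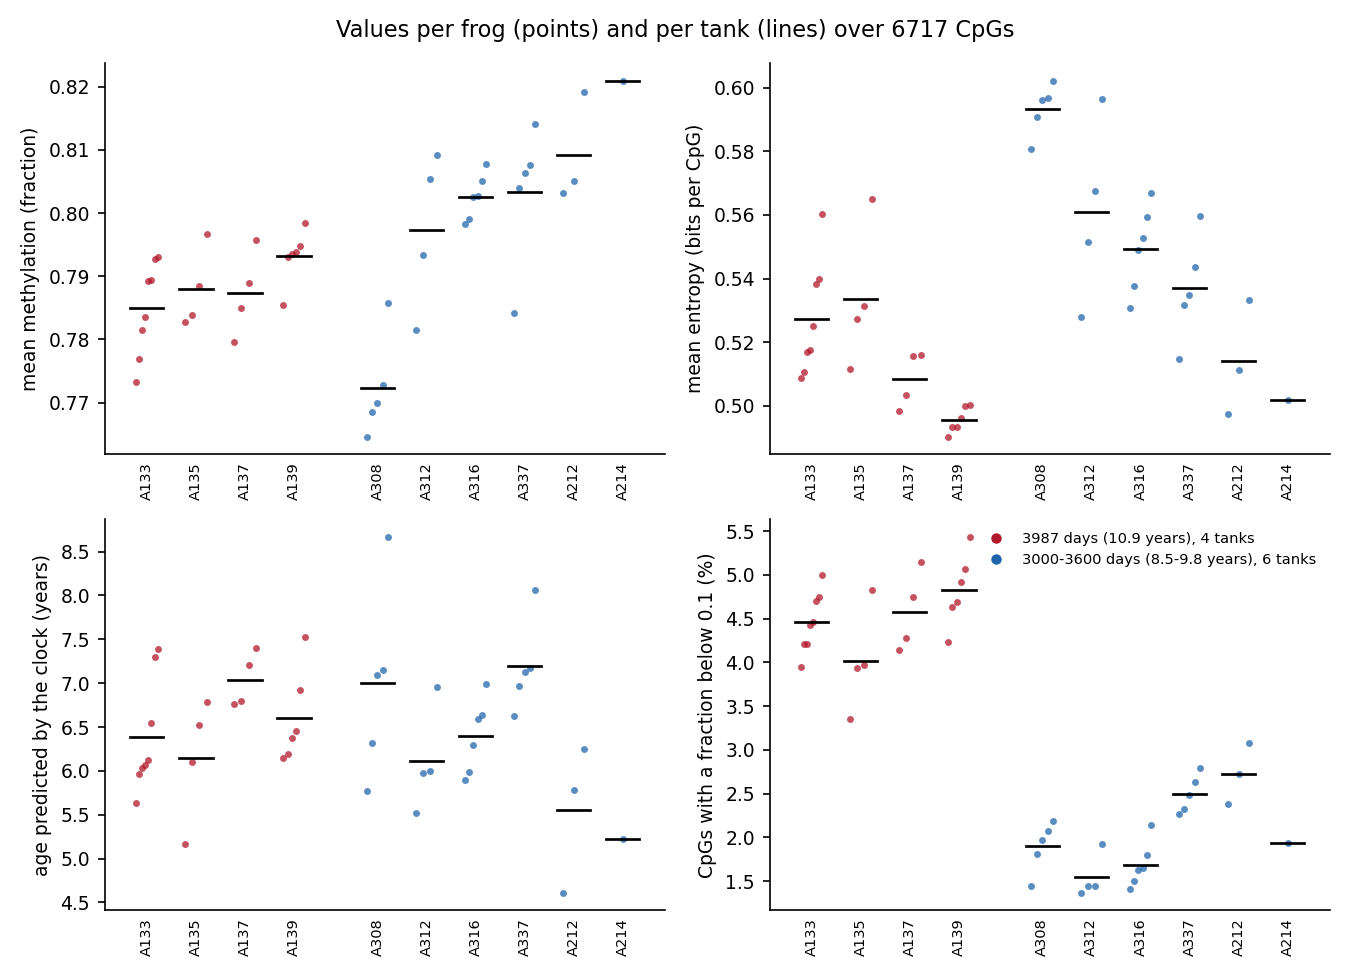
Mean methylation (fraction), entropy (bits per CpG), predicted age (years) and the share of CpGs with a fraction below 0.1 (%), for each frog (points) and tank (lines), with the 4 tanks of 3987 days in red on the left and the 6 tanks of 3000-3600 days in blue. The tanks overlap in the first 3 panels, while in the last the oldest tanks lie between 4.02% and 4.83% and the others between 1.54% and 2.73%.

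What did separate the groups was the number of CpGs with a measured methylation fraction near 0. The share of CpGs with a fraction below 0.1 was 4.46% (A133), 4.02% (A135), 4.58% (A137) and 4.83% (A139) at 3987 days. It was 1.90% (A308), 1.54% (A312), 1.69% (A316), 2.50% (A337), 2.73% (A212) and 1.94% (A214) in the younger group. No tank overlapped, and no frog did either, with 3.35% to 5.43% in single frogs at 3987 days and 1.37% to 3.08% in single frogs of the younger group. The exact permutation test over tanks gave p = 0.00476, the smallest that 210 assignments allow, for a measure chosen after the values had been seen. This test counts tanks of the same strain as separate units. Of the 543 CpGs removed by the mixture filter, which selects for values near 0, 262 ± 22.7 (SD, n = 4 tanks) were below 0.1 in an average frog at 3987 days and 105 ± 28.5 (SD, n = 6 tanks) in the younger group, and of the 6174 others 38.8 ± 0.736 and 32.6 ± 4.13 were. With the filter fitted on the 146 frogs of neither group instead, which was added after the values had been seen, 216 ± 14.7 at 3987 days and 91.3 ± 21.1 in the younger group were below 0.1 among the 412 CpGs it removed, and 84.2 ± 8.47 and 46.4 ± 13.0 among the 6305 it left. The share of CpGs above 0.9 was 46.8% ± 3.23 at 3987 days (SD, n = 4 tanks) and 45.7% ± 5.81 in the younger group (SD, n = 6 tanks), with an exact permutation p = 0.743.

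Tested CpG by CpG, 396 of the 6717 CpGs (5.9%) were lower and 232 (3.45%) were higher at 3987 days (limma on the log2 logit of tank means, Benjamini-Hochberg adjusted p under 0.05), and 1437 had an unadjusted p under 0.05. The lower CpGs had large differences, with a median of -0.330 on the fraction scale and 264 that differed by at least 0.2. The higher CpGs moved less, with a median difference of 0.108 and 47 that differed by at least 0.2. Over all CpGs the median difference was 0.00284. The tank means of the 2 groups did not overlap at 397 CpGs (5.91%) that were lower and 394 (5.87%) that were higher at 3987 days. The single frogs did not overlap at 36 CpGs (0.536%) that were lower and 5 (0.0744%) that were higher. Of the 6717 CpGs, the mean of the oldest strain lay below all 5 other strains at 817 and above them at 1329. Some strain is lowest and some strain highest at nearly every CpG, and these counts were not tested. With strain means as the units, 1 against 5, limma called 125 CpGs lower and 12 higher. With the coverage of the tank as a covariate it called 288 and 103, and 119, 125 and 140 CpGs were higher when tank A139, A133 or A137 was left out.

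The calls were split by the mixture filter as follows, with the oldest frogs' own values near 0 having entered that split. Of the 543 CpGs it removed, 190 (35.0%) were lower and 11 (2.03%) higher at 3987 days, with a median difference of -0.188. Of the 6174 CpGs it left, 206 (3.34%) were lower and 221 (3.58%) higher, with a median difference of 0.00352. With the filter fitted on the 146 frogs of neither group, 133 (32.3%) were lower and 8 (1.94%) higher of the 412 CpGs removed, and 263 (4.17%) and 224 (3.55%) of the 6305 left. Of the 190 lower CpGs removed by the filter on all frogs, 58 were left by that one. The lower calls left by the filter fell in 116 clusters of CpGs up to 1 kb apart and the higher calls in 143, out of 2272 clusters over all CpGs. In the filtered set the sizes still differed, with 80 lower and 38 higher calls of at least 0.2.

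**Figure D2:**
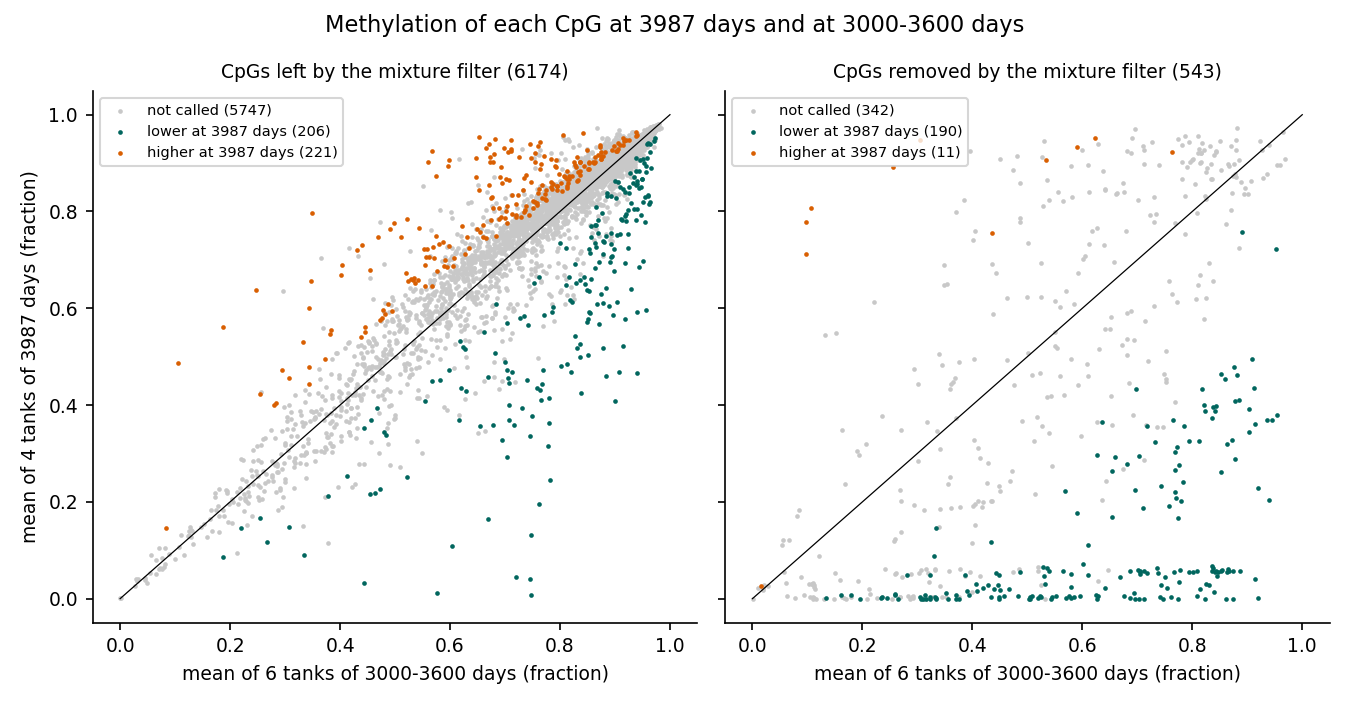
Methylation of each CpG as the mean of 4 tanks of 3987 days (y axis, fraction) against the mean of 6 tanks of 3000-3600 days (x axis, fraction), for CpGs left by the mixture filter (left) and removed by it (right), with lower calls in green, higher calls in orange and the line of equal values. Among the removed CpGs, 190 lower calls lie below the line, most of them along the bottom of the plot, and 11 higher calls lie above it.

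Calls were unevenly spread over the genome. A densely measured stretch of chromosome 1, from 32235673 to 33860688 in the v10.0 genome, held 1245 of the CpGs (18.5%) and 227 of the calls (36.1%). Of its 1187 CpGs left by the filter, 113 (9.52%) were lower and 76 (6.40%) higher. The start of chromosome 10, from 579 to 17770, held 88 CpGs, of which 10 (11.4%) were lower and 26 (29.5%) higher. Of the other 4899 CpGs left by the filter, 83 (1.69%) were lower and 119 (2.43%) higher. Both stretches were singled out after the calls had been seen. Their average levels hardly separated the groups: the chromosome 1 stretch averaged 0.818 ± 0.00455 at 3987 days (SD, n = 4 tanks) and 0.829 ± 0.0203 in the younger group (SD, n = 6 tanks), with an exact permutation p = 0.362, and the start of chromosome 10 averaged 0.722 ± 0.0102 and 0.698 ± 0.0234, with an exact permutation p = 0.0857. Lower and higher CpGs thus lay side by side.

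**Figure D3:**
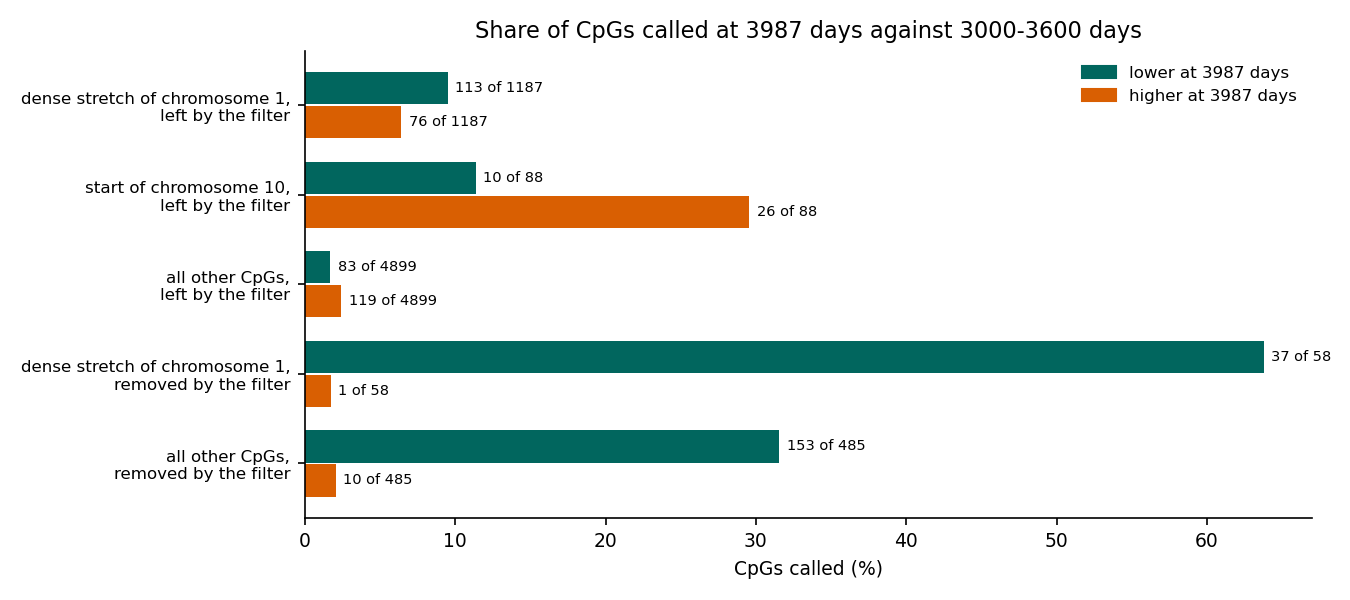
Share of CpGs (%) called lower (green) and higher (orange) at 3987 days against 3000-3600 days, for the dense stretch of chromosome 1, the start of chromosome 10 and all other CpGs, split by the mixture filter. The start of chromosome 10 has 26 of 88 CpGs higher, and the CpGs removed by the filter have 37 of 58 and 153 of 485 lower.

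Clusters of CpGs left by the filter, each CpG up to 1 kb from the next, held calls mostly of the same direction in some cases and of both in others, given as counts with no test. Positions are those of the first and last call, and averages are over the called CpGs. A cluster of 74 CpGs on chromosome 1 held 11 lower calls from 32811009 to 32813116 and 8 higher calls from 32811317 to 32813256. At the start of chromosome 10, a cluster of 43 CpGs held 17 higher calls from 7993 to 11026 and 2 lower calls, the nearest higher one 735 bp from LOC101731736, a long noncoding RNA gene, while a cluster of 20 held 7 lower calls from 5388 to 5945 and 1 higher call. On chromosome 1, 8 of 23 CpGs were higher, from 33202616 to 33203087, averaging 0.922 at 3987 days and 0.741 in the younger group, with 1 lower call in the same cluster. In another, 5 of 14 were lower, from 33050973 to 33051118, averaging 0.565 and 0.903. Outside the stretches, 9 of 10 CpGs of a cluster on chromosome 7 were lower, from 70122528 to 70122620 (0.780 at 3987 days and 0.923 in the younger group), 9838 bp from zbtb44, which encodes a zinc finger protein. All 4 CpGs of a cluster on chromosome 8, from 113798425 to 113798462 inside npas3, a transcription factor gene of the nervous system, were lower (0.679 and 0.857). All 4 CpGs of another, from 60291975 to 60292056 and 41190 bp from LOC108648318, were higher (0.501 and 0.329).

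Among CpGs left by the filter, the 10 with the most negative differences included 9 in the chromosome 1 stretch, 56134 to 304225 bp from the nearest gene, the long noncoding RNA gene LOC108645172. At Chr1:33172689 the tanks at 3987 days had 0.00901 (A133), 0.00481 (A135), 0.00767 (A137) and 0.00768 (A139). The tanks of the younger group had 0.515 (A308), 0.645 (A312), 0.753 (A316), 0.879 (A337), 0.783 (A212) and 0.905 (A214). The measured fraction was therefore near 0 in every frog of 3987 days (highest 0.0192) and higher in every frog of the younger group (lowest 0.362). The group means differed by -0.739, with adjusted p = 4.83e-06 (limma). Chr1:33150609, Chr1:33159497 and Chr1:33165035, whose sequences were shown first, had tank means of 0.0413 ± 0.0823, 0.0441 ± 0.0810 and 0.0122 ± 0.0243 at 3987 days (SD, n = 4 tanks) and of 0.746 ± 0.151, 0.720 ± 0.170 and 0.576 ± 0.149 in the younger group (SD, n = 6 tanks). Their adjusted p-values were 0.0017, 0.00153 and 0.000508 (limma).

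The other 5 named CpGs of the stretch were Chr1:33148342, Chr1:33011613, Chr1:33163355, Chr1:33202921 and Chr1:32954830. They had group means of 0.109 to 0.408 at 3987 days and of 0.604 to 0.901 in the younger group. At Chr1:32954830 the tanks had 0.393, 0.483, 0.397 and 0.360 at 3987 days, against 0.873 to 0.924 in the younger group (adjusted p = 1.29e-06, limma). In 7 of these 9 CpGs, not Chr1:33011613 and Chr1:33202921, tank A308 had the lowest and tank A214 the highest mean of the younger group. The tenth CpG, Chr7:117206520, lay 2433 bp from trnac-gca, a cysteine tRNA gene. Its tanks had 0.219, 0.293, 0.231 and 0.236 at 3987 days, against 0.751 (A308), 0.790 (A312), 0.805 (A316), 0.600 (A337), 0.862 (A212) and 0.886 (A214) in the younger group, and the frogs did not overlap (0.206 to 0.514 and 0.527 to 0.889, adjusted p = 0.000284, limma).

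The 10 CpGs with the most positive differences were spread more widely. The largest was Chr8:73680326, 832 bp from psmb7.2, a gene for a proteasome subunit. Its tanks had 0.845 (A133), 0.749 (A135), 0.861 (A137) and 0.736 (A139) at 3987 days, against 0.514 (A308), 0.302 (A312), 0.383 (A316), 0.320 (A337), 0.357 (A212) and 0.222 (A214) in the younger group (difference 0.448, adjusted p = 0.000549, limma). The tanks did not overlap but the frogs did, at 0.492 to 0.962 and 0.222 to 0.742.

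Inside cdk5rap2, which encodes a centrosome protein, Chr8:38303716 had 0.638 ± 0.108 at 3987 days (SD, n = 4 tanks) and 0.247 ± 0.0727 in the younger group (SD, n = 6 tanks, adjusted p = 0.00173, limma). Inside nxph2, which encodes a secreted ligand of neurexins in mammals, Chr9:81330627 had 0.486 ± 0.0567 and 0.105 ± 0.0557 (adjusted p = 0.000559, limma). With this CpG itself counted, 3 of the 4 CpGs measured within 1 kb were higher. Single frogs of 3987 days ranged at the nxph2 CpG over nearly the whole scale, 0.0627 to 0.955, against 0.0408 to 0.381 in the younger group. At Chr10:9716, 2045 bp from LOC101731736, the means were 0.562 ± 0.101 and 0.188 ± 0.126 (adjusted p = 0.0154, limma). Again with the CpG itself counted, 6 of 16 CpGs within 1 kb were higher.

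Of the remaining 6, 5 lay in the chromosome 1 stretch. At Chr1:33192028 the tanks at 3987 days had 0.917 (A133), 0.859 (A135), 0.904 (A137) and 0.927 (A139), against 0.439 (A308) and 0.569 to 0.597 in the other 5 tanks of the younger group (adjusted p = 3.93e-05, limma). At Chr1:33142827 no frog overlapped, with 0.855 to 0.928 at 3987 days and 0.00915 to 0.751 in the younger group (adjusted p = 0.000658, limma). Chr1:33414278, Chr1:32605479 and Chr1:32572394 had 0.895 to 0.954 at 3987 days and 0.568 to 0.653 in the younger group (adjusted p = 0.0155, 0.00513 and 0.00569, limma). The tanks of the younger group ranged widely, over 0.304 to 0.865, 0.445 to 0.898 and 0.445 to 0.810. The tanks of the groups did not overlap but the frogs did, at each of these CpGs. On the raw fraction scale Chr1:33414278 and Chr1:32605479 lost their call (adjusted p = 0.0673 and 0.0513, limma). The sixth, Chr10:24735411, lay 58579 bp from tom1l1, a gene for an adaptor protein of vesicle traffic, and had 0.656 ± 0.0253 and 0.347 ± 0.117 (adjusted p = 0.00828, limma). Chr10:9716 lost its call when tank A133 or A139 was left out (adjusted p = 0.0578 and 0.0599), and Chr1:33414278 when A139 was (adjusted p = 0.0540).

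The largest differences of all were at CpGs removed by the filter. Inside lrba, which encodes a protein of vesicle traffic needed for immune regulation in humans, Chr1:56896693 had 0.00038, 0.00117, 0 and 0.000532 in the tanks at 3987 days, against 0.721 (A308), 0.951 (A312), 0.958 (A316), 0.967 (A337), 0.969 (A212) and 0.9496 (A214) in the younger group. No frog overlapped, with at most 0.00467 at 3987 days and at least 0.507 in the younger group (adjusted p = 7.15e-07, limma). Chr1:45537824, 35082 bp from LOC105946470, had 0.0398 ± 0.0703 at 3987 days (SD, n = 4 tanks) and 0.915 ± 0.115 in the younger group (SD, n = 6 tanks, adjusted p = 0.000306, limma). The 2 most positive were Chr5:140936009, 46120 bp from the transcription factor gene mycn, with 0.807 ± 0.121 and 0.107 ± 0.120, and Chr6:21004921, 360662 bp from the zinc finger gene klf6, with 0.779 ± 0.0610 and 0.0972 ± 0.141. The call at Chr5:140936009 (adjusted p = 0.0318, limma) was lost when any of the tanks A133, A135, A137, A139, A308, A212 or A214 was left out (adjusted p = 0.0521 to 0.098).

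At 102 of the 543 removed CpGs all 22 frogs of 3987 days were below 0.1, and at 8 all 24 frogs of the younger group were. The strains of the younger group had between 21 and 103 such CpGs, the most in the 5 frogs of A337. At 13 of the 543 every frog of 3987 days was below 0.1 and no frog of the younger group was, and at 0 was the reverse seen. The filter had used values near 0 in these same frogs. A low value in all frogs of a group is also more readily met in 1 strain than across 5, so these counts are not alike. Chromosome 1, with 1998 of the 6717 CpGs and 222 of the 396 lower calls, held 8 of these 13. They included CpGs inside lrba, inside snca, the gene of the synaptic protein alpha-synuclein (0.00511 ± 0.00236 at 3987 days and 0.629 ± 0.0953 in the younger group), inside wdr17, and inside dab1 on chromosome 4, the gene of an adaptor of reelin signalling (0 in every frog of 3987 days and 0.823 ± 0.151).

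A further tank shows these CpGs in the oldest strain at a younger age. Tank C410 held 5 frogs of Xtr.Tg(eef1a1:GFP)Krieg of 2523 days (6.91 years) on lane 1, which were in neither group compared above. They were looked at after those tests. They had, however, been among the 146 frogs that trained the clock, and both fits of the mixture filter had used them. At the lrba CpG its frogs had 0.547 to 0.583, and its mean of 0.5635 lay between the tank means of the 2 groups. Single frogs of the younger group reached down to 0.507 there, so the frogs overlapped. The lowest mean of a tank of adults under 3000 days at this CpG was 0.5615, in another tank. At Chr1:45537824 the frogs of C410 had 0.450 to 0.515. Of the 190 removed CpGs that were lower at 3987 days, 129 (67.9%) averaged below 0.1 at 3987 days and 0 in the younger group. In C410, 38 (20.0%) did and 130 (68.4%) lay between 0.3 and 0.7, against 33 (17.4%) at 3987 days and 84 (44.2%) in the younger group. These set the mean of 1 tank beside means over several tanks. In single frogs, 97 to 135 of the 190 CpGs lay between 0.3 and 0.7 in C410. The number was 6 to 47 at 3987 days, 41 to 107 in the younger group and 23 to 124 in the 136 other adults under 3000 days. C410 lay beyond all 6 tanks of the younger group, on the side of the 3987-day tanks, at 113 of the 190 CpGs (59.5%). This count was not made for other tanks or over all CpGs. The 190 CpGs had been picked because the younger group was higher there, so the count does not show what is particular to C410.

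**Figure D4:**
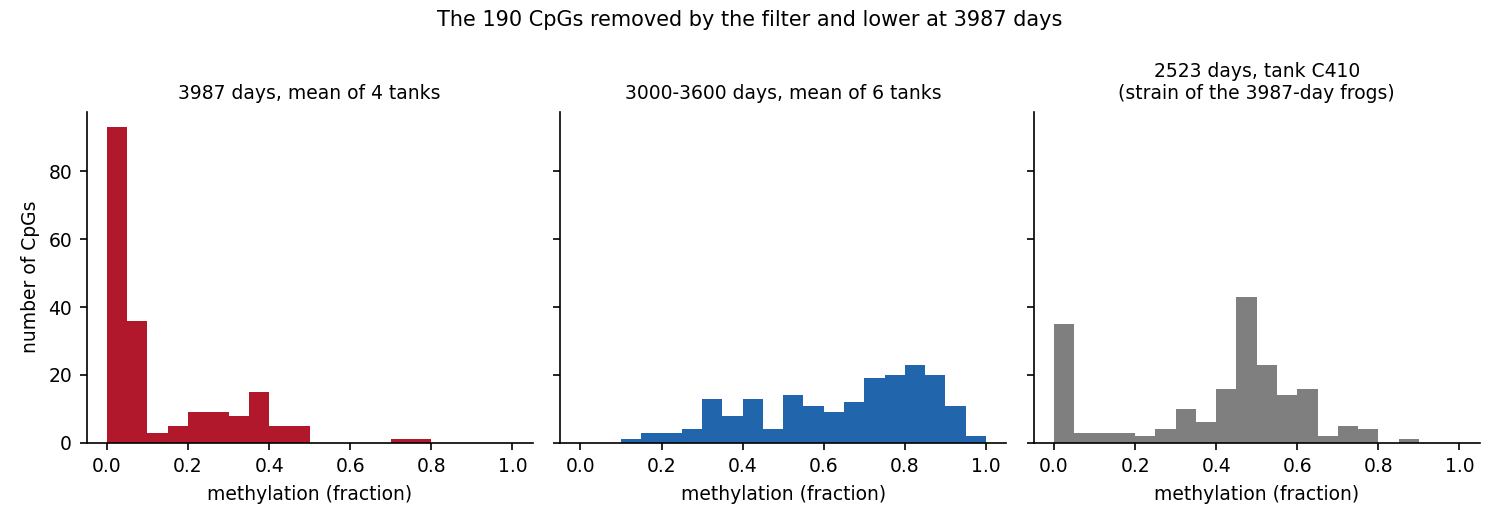
Numbers of CpGs (y axis) by methylation (x axis, fraction) for the 190 CpGs removed by the filter and lower at 3987 days, as the mean of 4 tanks of 3987 days (left), of 6 tanks of 3000-3600 days (middle) and in tank C410 of the oldest strain at 2523 days (right). Most CpGs are near 0 at 3987 days (129 below 0.1), spread over the upper range at 3000-3600 days, and between 0.3 and 0.7 in C410 (130 of 190).

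CpGs left by the filter gave a like picture. At Chr1:33172689, Chr1:33150609, Chr1:33159497 and Chr1:33165035 tank C410 averaged 0.196, 0.282, 0.178 and 0.155, the lowest value of all 22 tanks of adults under 3000 days at each of the 4, and between the groups. Its mean was nearer to the mean at 3987 days than to that of the younger group at 124 of the 206 lower CpGs (60.2%), against 4.37% to 26.2% in the 21 other tanks of adults under 3000 days. It was nearer at 165 of the 221 higher CpGs (74.7%), against 18.1% to 67.9% in those tanks. For the CpGs removed by the filter and lower at 3987 days the shares were 37.9% in C410 and 0.526% to 22.1% in the other tanks, and for the 11 that were higher they were 72.7% in C410 and 9.09% to 81.8% in the other tanks, where C410 was not the highest. C410 was thus nearer to the oldest frogs at part of the called CpGs, as a description from 1 tank with no test. The 21 other tanks differed from C410 in age as well as strain, and part of them in lane, so these cannot be told apart. C410 was not nearer at every CpG. At Chr7:117206520 it had 0.617, near the 0.600 of tank A337. At Chr1:33192028 it had 0.602, next to the 0.560 ± 0.0600 of the younger group.

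**Figure D5:**
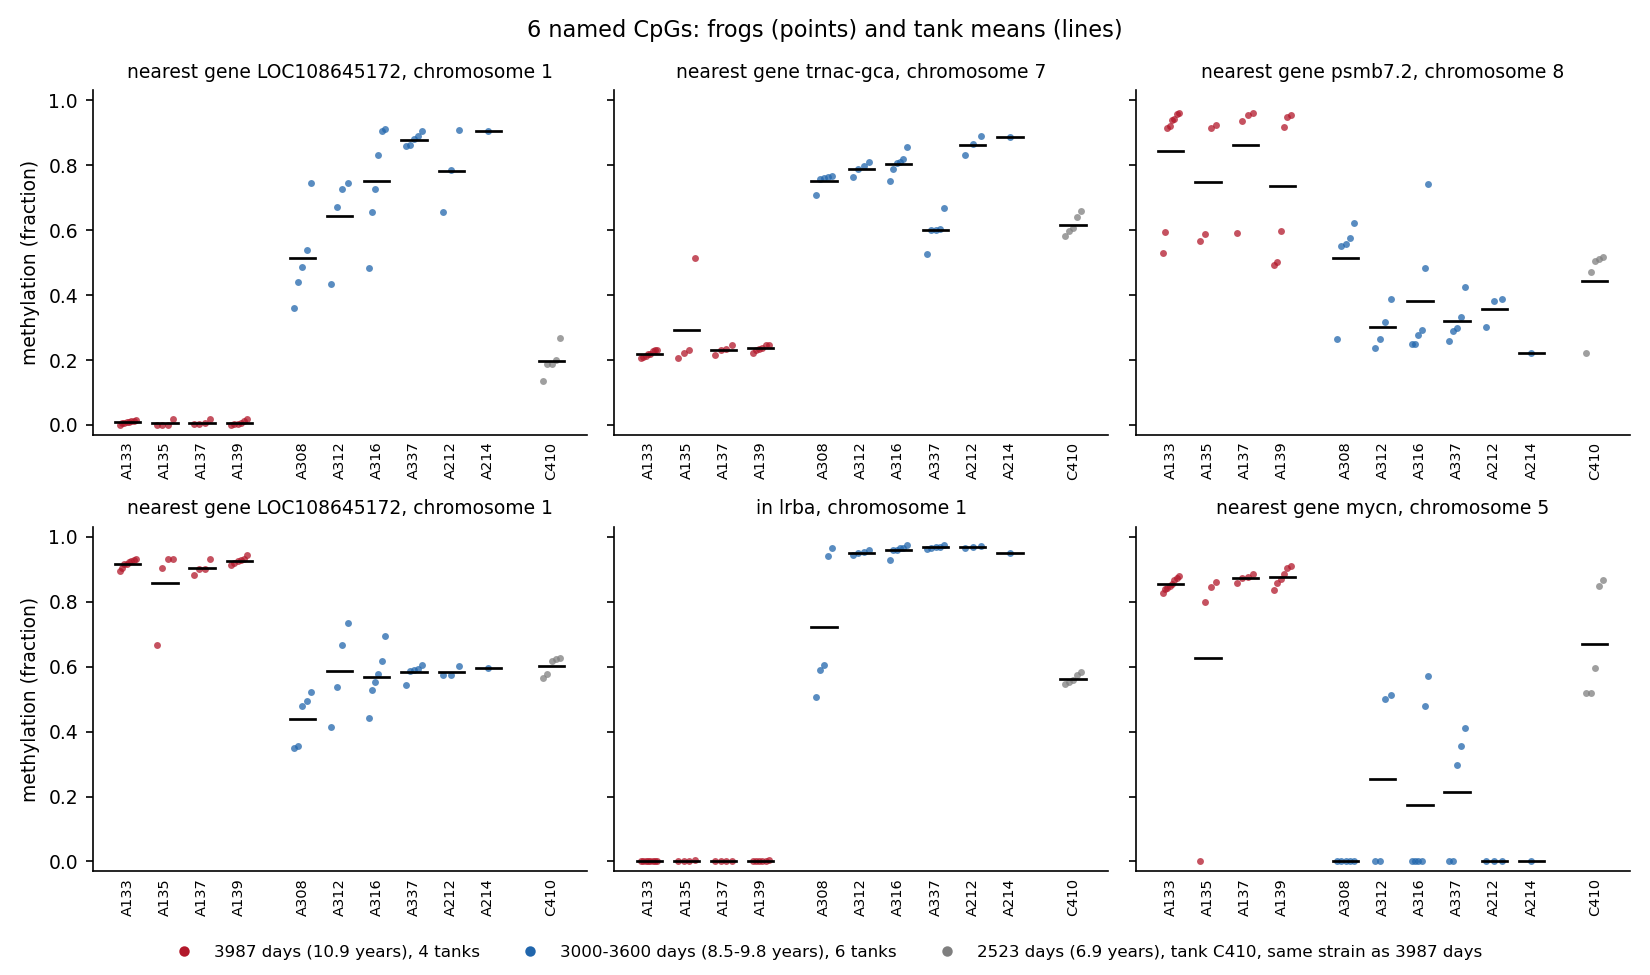
Methylation (fraction) of each frog (points) and tank (lines) at 6 named CpGs, with 3987 days in red on the left, 3000-3600 days in blue and tank C410 (2523 days, the strain of the oldest frogs) in grey. From the upper left they are Chr1:33172689, Chr7:117206520, Chr8:73680326, Chr1:33192028, Chr1:56896693 and Chr5:140936009. At the CpG in lrba the mean of C410, 0.5635, lies between the tank means of the groups. Its frogs there, at 0.547 to 0.583, overlap single frogs of the younger group.

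The CpGs at 3987 days were next compared with how each CpG tracked age in the 141 adults under 3000 days, as Spearman correlations that share 22 tanks and both lanes and are given as a description. The question was whether CpGs with a negative correlation were also lower at 3987 days. Of the 1301 CpGs left by the filter with a correlation of -0.3 or below, 27 (2.08%) were lower and 69 (5.30%) higher. Over all 6174 CpGs left by the filter these shares were 3.34% and 3.58%. Only 284 (21.8%) of the 1301 had a lower mean at 3987 days, against 39.4% of all 6174. The median difference of the 1301 was 0.0240. Without the filter, 1478 CpGs had such a correlation. Of these, 90 (6.09%) were lower and 72 (4.87%) higher, against 5.9% and 3.45% of all 6717, so the lower share was near that of all CpGs. Among them were 177 removed by the filter, with 63 (35.6%) lower and 3 (1.7%) higher, against 35.0% and 2.03% of all 543 removed. Of the 205 left by the filter with a correlation of 0.3 or above, 13 (6.34%) were lower and 3 (1.46%) higher, against the same 3.34% and 3.58%. At correlations of 0.5 or more in size, 460 CpGs left by the filter had a negative one, with 8 (1.74%) lower and 30 (6.52%) higher. Of the 43 with a positive one 0 were called, and these are too few to set against the shares over all CpGs.

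Of the CpGs left by the filter with the 10 most negative and 10 most positive correlations, taken 1 in each 1 kb, 1 was called, against 3.34% lower and 3.58% higher over all CpGs left by the filter, so that 20 CpGs are too few to set apart from the rest. Chr3:36681341, 5030 bp from rnf14.2, which belongs to a family of ubiquitin ligase genes, averaged 0.905 in 31 adults under 1 year and 0.725 in 26 adults of 6 to 8 years. Its tanks averaged 0.855 ± 0.0255 at 3987 days (SD, n = 4 tanks) and 0.671 ± 0.0781 in the younger group (SD, n = 6), without overlap (adjusted p = 0.0052, limma). Inside mettl25, a gene of the methyltransferase-like family, Chr3:53115546 had 0.630 under 1 year and 0.382 at 6 to 8 years, and then 0.388 ± 0.0170 at 3987 days and 0.410 ± 0.0366 in the younger group (adjusted p = 0.654, limma). Inside cdk5rap2, Chr8:38272540 had 0.470 and 0.297 at those younger ages, and 0.317 ± 0.0178 at 3987 days and 0.311 ± 0.0476 in the younger group (adjusted p = 0.909, limma). Among those with positive correlations, Chr1:65436019 had 0.224 under 1 year and 0.391 at 6 to 8 years, with 0.528 ± 0.0352 at 3987 days and 0.414 ± 0.0644 in the younger group, a difference of 0.115 that missed the threshold (adjusted p = 0.0736, limma). Inside nbea, Chr2:152386669 had 0.326 and 0.476 at the younger ages, and 0.464 ± 0.0103 at 3987 days and 0.531 ± 0.0660 in the younger group (adjusted p = 0.294, limma).

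Sequence and position were compared as counts of calls, over the 6174 CpGs left by the filter unless stated. CpGs with a mean of 0.5 to 0.8 in younger adults had 64 lower (5.21%) and 113 higher (9.20%) calls of 1228, and those of 0.95 or more had 11 (1.24%) and 1 (0.113%) of 888. CpGs at 0.95 or more have little room left to rise, and whether this bears on their 1 higher call was not tested. Inside genes 39 (1.68%) were lower and 46 (1.98%) higher of 2319, against 152 (4.90%) and 141 (4.54%) of 3103 that lay over 5 kb from any gene. The chromosome 1 stretch, whose named CpGs all lay over 5 kb from any gene, held 113 of the 206 lower and 76 of the 221 higher calls. Of the 4899 CpGs outside the stretches of chromosomes 1 and 10, 83 (1.69%) were lower and 119 (2.43%) higher. Distance from genes was not separated from these stretches. With C or G on both sides of the CpG 33 (6.01%) were lower and 22 (4.01%) higher of 549, and with A or T on both sides 28 (3.30%) and 46 (5.42%) of 848, over the CpGs with a probe sequence at hand. CpGs in repeat-masked probe sequence had 37 lower (4.26%) and 27 higher (3.11%) calls of 869, and those in unmasked sequence 77 (4.05%) and 101 (5.32%) of 1900. The 3405 CpGs with no probe sequence at hand had 92 (2.70%) and 93 (2.73%). Probe sequences were at hand for only part of the chromosomes, and neither flanking bases nor masking were separated from the stretches of chromosomes 1 and 10. By chromosome, the share of lower calls ran from 0.783% on chromosome 2 to 6.91% on chromosome 1, and that of higher calls from 0.855% on chromosome 7 to 17.9% on chromosome 10. On chromosome 4 the filter mattered most: 58 of 655 CpGs (8.85%) were lower in all, but 7 of 552 (1.27%) among those it left.

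Few CpGs lay in or within 5 kb of the genes listed by function, and their calls are given beside the 5.9% lower and 3.45% higher over all CpGs. Genes were placed in a list by the start of their symbols alone, so a listed gene need not act as its list is named. Genes of chromatin and DNA methylation had 2 lower and 0 higher calls of 12 CpGs (median difference -0.00186): inside tet2, whose enzyme oxidises methylcytosine (0.0494 ± 0.0197 at 3987 days and 0.280 ± 0.0684 in the younger group, adjusted p = 0.000314, limma), and inside smarca2, a chromatin remodelling ATPase (0.453 ± 0.134 and 0.859 ± 0.170, adjusted p = 0.0200, limma). Immune genes had 2 lower and 0 higher of 14 (median 0.00578): inside il13ra2, a decoy receptor for interleukin 13 (0.229 ± 0.116 and 0.920 ± 0.0107, adjusted p = 5.49e-06, limma), and inside il1rapl1, which is better known from synapses. Skin and junction genes had 2 lower and 1 higher of 24 (median 0.0171), in the collagen genes col25a1.2 and col5a3. A col25a1.2 CpG at 67402799 of chromosome 1 was 0 in every tank at 3987 days and 0.502 ± 0.276 in the younger group, whereas the one at 67399893 was 0.938 ± 0.00991 and 0.873 ± 0.0333.

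Developmental regulators had 1 lower and 0 higher of 17 (median 0.0154), inside the growth factor gene fgf5 (0.266 ± 0.0730 and 0.769 ± 0.131), and zinc finger genes 1 lower and 0 higher of 17 (median 0.000180), inside znf536 (0.0550 ± 0.109 and 0.841 ± 0.146). The rnf14 array had 0 lower and 2 higher of 25 (median 0.00966), and the receptors of smell 0 and 0 of 4 (median 0.00355). Of the 2 higher, Chr3:37433042 was near 0 in both groups (0.0257 ± 0.00580 at 3987 days and 0.0148 ± 0.00260 in the younger group) and had been removed by the filter. All 8 lower CpGs of these lists had been removed by the mixture filter.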

How the data were processed

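The authors deposited 1 table of methylation fractions, methylated over total reads, for CpGs with at least 100 reads in all 192 frogs. Per the labels and the study's methods, reads were trimmed with fastp and aligned with BiSulfite Bolt (genome build v10.0). Depth behind each value was not used here, so no counting interval is given. Fractions were averaged per tank, transformed as log2 of (fraction + 0.001) over (1 - fraction + 0.001), and compared with limma 3.58.1 (R 4.3.3). The mixture filter removed CpGs with a value under 0.006 whose Bayesian information criterion fell by more than 90 with 3 normal components in place of 1 (scikit-learn 1.9.0), over all 192 frogs, or over the 146 of neither group (added after seeing the data). Other measures used exact two-sided permutation tests over tanks. Genes are those of RefSeq on UCB_Xtro_10.0; exons and strands were not used. Named CpGs left by the filter are the 10 most negative and 10 most positive differences among calls, 1 in each 1 kb, with 2 and 2 of those removed; others in the text were chosen after their values were seen. Groups and lists were chosen with earlier results of these data known. The fits were tested on simulated data. Alternatives were another scale, offset, filter, unit, reference age, covariate and threshold, and each tank left out.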

Additional observations from a re-analysis of the deposited data

Results flagged for a closer look

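Over the summary measures and named CpGs, 80 sets of tank or frog values, of 4 to 8 values each, were checked for a value that stands far from the others of its set, and 9 values did. Chance gives about 1 in 20 such sets, and the named CpGs of the chromosome 1 stretch are neighbours, so the sets are not independent. Of the 9, 5 were in tank A135 at 3987 days: its mean was the highest of the 4 tanks at Chr1:33150609 (0.165), Chr1:33159497 (0.166), Chr1:33165035 (0.0486) and Chr1:45537824 (0.145), and the lowest at Chr5:140936009 (0.626). At each of these 5 CpGs the frog of A135 described above had the value farthest from its 21 group mates.

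The other 4 were in tank A308, of the younger group. Its mean was the highest of the 6 tanks at Chr1:33202921 (0.696) and the lowest at Chr1:33192028 (0.439), Chr1:56896693 (0.721) and Chr1:45537824 (0.680).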

How the results depend on the processing

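The counts of 396 lower and 232 higher CpGs depended most on the unit. With 46 frogs as units they were 861 and 1779, with the tank as a random block 601 and 743, and with the means of 6 strains 125 and 12. Only CpGs left by the filter, fitted alone, gave 215 lower, the 3583-day tanks alone as the younger group 724 lower and those of 3090 to 3301 days 459 higher. Tanks weighted by their frogs gave 482 higher, coverage as a covariate 103 higher, and a threshold of 0.01 gave 263 lower and 101 higher. With each tank left out in turn the counts were 290 to 473 lower and 119 to 296 higher. The other settings stayed within 1.5 times of the main counts.

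The difference in mean methylation of -0.0126 turned to 0.00375 over CpGs left by the filter and to 0.00417 for the median over CpGs, was -0.00895 with 46 frogs as units (permutation p = 0.0189) and lay between -0.0183 and -0.00857 with a tank left out. That of entropy was -0.0351 with frogs as units (permutation p = 7e-05), which counts tank mates as independent, and -0.0347 to -0.0163 with a tank left out. The spread between tank mates turned to 0.00665 as an SD of the log2 logit (-0.00277 to -0.000365 with a tank left out), and predicted age to -0.237 when the clock was fitted to the natural logarithm of age (0.0926 to 0.487 years with a tank left out). The share of CpGs below 0.1 kept its direction and its side of the threshold throughout, with differences of 0.0995 to 2.57 percentage points. The alternatives that left out 1 frog, like the measures of CpGs below 0.1, above 0.9 and between 0.2 and 0.8, the 2 stretches, tank C410 and the correlation limits of 0.3 and 0.5, were chosen after seeing the data. None of the 24 named CpGs turned its direction in any setting, but 16 lost their call with the means of 6 strains, 4 with coverage as a covariate and 2 on the raw fraction scale. The cause of these changes was not tested.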
